A study of Drosophila melanogaster with 4 samples.

Results

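The Polycomb group genes were followed in ovaries of *Drosophila melanogaster* in which the germline was depleted of *bag of marbles* (*bam*) alone or of *bam* and *aramis* together. The 10 genes were chosen by symbol, with earlier results of these data known. They were found by FlyBase identifier among the 17023 genes listed for each library. There were 4 subunits of Polycomb Repressive Complex 2 (PRC2), *E(z)*, *esc*, *Su(z)12* and *Pcl*, and 6 genes of PRC1, *Pc*, *ph-p*, *ph-d*, *Psc*, *Sce* and *Scm*. All 10 passed the filter on low counts that left 9115 genes to be tested.

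Bulk RNA-seq of poly(A)-selected RNA from whole ovaries was available from 4 libraries, 2 of *bam* RNAi in a UAS-Dicer2;NosGAL4 background and 2 in which *aramis* RNAi was combined with it, called double RNAi here. Both genotypes carry the NosGAL4 driver, which is active in the germline, UAS-Dicer2 and the *bam* RNAi construct, and flies were fed yeast and dissected 1 to 3 days after eclosion. The construct against *bam*, a gene that germline daughter cells need in order to differentiate, serves as the developmental control, so no ovary with normal *bam* was compared here. RNAi is driven in germline cells, while the somatic cells of the ovary are in the same RNA sample, and the number of animals behind each library is not stated. Fewer cells of a type and less RNA per cell cannot be told apart in such samples.

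PRC2 places the repressive methyl mark on lysine 27 of histone H3 (H3K27me3), and PRC1, which binds that mark through Pc, ubiquitylates histone H2A and compacts chromatin, so that both together keep developmental genes such as the Hox genes silent. In the *Drosophila* ovary, PRC2 is known to be needed in the germline for the oocyte to keep its identity, and *Psc* and its paralog *Su(z)2* to restrain the follicle cell lineage.

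Total counts ran from 11882367 to 13348602 per library, so that a floor of 3 counts corresponded to between 0.225 and 0.252 CPM (counts scaled to library size), covering counting error only. The lowest count of any Polycomb member in any library was 162, for *esc*. The second RNAi target, *aramis* (listed as *ais*), had counts of 454 and 507 in *bam* RNAi and of 149 and 161 in double RNAi, with a log2 fold change of -1.37 (SE 0.113, edgeR adjusted p = 3.3e-04). Scaled on germline markers this call was lost, at 0.17 (adjusted p = 0.221). *bam* had 35 and 25 counts against 16 and 17, which did not pass the test (log2 fold change -0.61, edgeR adjusted p = 0.262). Cell type markers moved with the genotype, and these shifts stand beside every comparison below. Of 16 germline markers 15 fell and 1 (*tud*) rose, with a median log2 fold change of -1.69. Their summed level was 2735 and 2784 CPM scaled by TMM (trimmed mean of M-values, edgeR's library scaling) in *bam* RNAi and 1701 and 1488 in double RNAi. Of these sums *tud* alone held 562 and 575 in *bam* RNAi and 862 and 715 in double RNAi. No germline marker was at 0 in any library. Of 14 tested somatic ovary markers 7 rose and 2 fell, of 5 muscle sheath markers 5 rose, and of 6 hemocyte and fat body markers 4 rose. Beside these counts, 25.4% of all 9115 tested genes were called higher and 25.0% lower. The 6 eggshell markers fell and were uneven between replicates of both genotypes, holding 0.549% and 2.27% of the counts in *bam* RNAi replicates 1 and 2 and 0.0906% and 0.0189% in double RNAi replicates 1 and 2. The part of these cell types in the values of the Polycomb genes was not tested.

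All 10 Polycomb mRNAs were present in *bam* RNAi ovaries, and their levels per length of exon differed. On the TPM scale, in which counts are divided by exon length and scaled to an equal sum in each library so that genes can be compared, *Pcl*, an accessory PRC2 subunit that helps the complex bind chromatin, stood first at 141 ± 18.0 TPM (SD, n = 2). *Su(z)12*, the scaffold of PRC2, followed at 68.2 ± 5.96 TPM. *Sce*, the RING subunit of PRC1 that ubiquitylates H2A, was at 59.0 ± 0.101 TPM. Next came the PRC2 methyltransferase *E(z)* at 48.8 ± 1.01 TPM, the WD40 subunit *esc* at 39.7 ± 1.33 TPM and *Scm*, a SAM and MBT domain protein associated with PRC1, at 34.8 ± 1.06 TPM. The TPM values of these 6 genes did not overlap between neighbours in this order. The other 4 PRC1 genes lay close together, *Psc* at 25.3 ± 2.11 TPM, *Pc* at 23.8 ± 2.54, *ph-d* at 21.7 ± 3.44 and *ph-p* at 21.1 ± 2.02 TPM, and the libraries of each neighbouring pair overlapped. *Pcl* was higher than 92.9% of the genes with an exon length in *bam* RNAi, and *ph-p*, the lowest of the members, higher than 64.5%. These shares include genes without counts. Among genes with at least 1 count they were 90.9% and 54.7%, and ranked by CPM, without division by length, 95.6% and 81.1%.

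In double RNAi ovaries the top 3 genes kept their order, with *Pcl* at 64.5 ± 3.83 TPM (SD, n = 2), *Su(z)12* at 51.5 ± 4.82 TPM and *Sce* at 46.3 ± 1.12 TPM. *Scm*, at 39.0 ± 1.56 TPM, stood above *E(z)*, at 35.1 ± 5.57 TPM, although one *E(z)* library lay within the range of *Scm*. The 5 genes at the lower end, from *esc* at 23.8 ± 7.54 TPM to *Psc* at 18.2 ± 2.83 TPM, overlapped from neighbour to neighbour.

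The members lie on 5 chromosome arms in dm6 coordinates (Ensembl annotation of BDGP6). *Pcl* lies on the plus strand of arm 2R from 18135426 to 18139990, and all other members on the minus strand. *E(z)* spans 10634575 to 10638130 on 3L, *Su(z)12* spans 19918242 to 19923462 on 3L, and *esc* spans 11827204 to 11829405 on 2L. Of the PRC1 genes, *Pc* lies on 3L from 21306138 to 21318020, *Psc* on 2R from 12965997 to 12980994, *Sce* on 3R from 27680431 to 27682029 and *Scm* on 3R from 9633359 to 9637611. The tandem duplicates *ph-d* (2115727 to 2123286) and *ph-p* (2126210 to 2138371) are neighbours on the X chromosome, 2923 bases apart. Their sequences are alike, and how reads matching both were assigned is not stated, so the split of counts between them is uncertain. The exons of *E(z)*, *Pc* and *Scm* overlap a gene on the opposite strand by 38, 60 and 315 bases, and whether the counting used strand is not stated. The gene opposite *Scm*, *SpdS*, had between 23 and 58 counts per library against 730 to 811 for *Scm*.

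To ask how the Polycomb machinery differed when *aramis* was depleted in addition to *bam*, the genotypes were compared by the quasi-likelihood test of edgeR, with p-values adjusted by Benjamini-Hochberg over all 9115 genes. All 4 PRC2 subunits were lower in double RNAi, from *Pcl*, at 49.8% of its *bam* RNAi level, to *Su(z)12*, at 82.2%. Of the 6 PRC1 genes, *Psc* fell, *Scm* rose and 4 did not pass the test. Over the 10 members this makes 5 lower and 1 higher, where over all tested genes 50.4% were called, 25.0% as lower and 25.4% as higher. The median log2 fold change was -0.49 over the PRC2 members and -0.12 over the PRC1 members, against -0.02 over all tested genes. Libraries are numbered as replicates in the labels and nothing says that they came from separate sets of flies, so p-values measure the spread between these libraries.

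**Figure D1:**
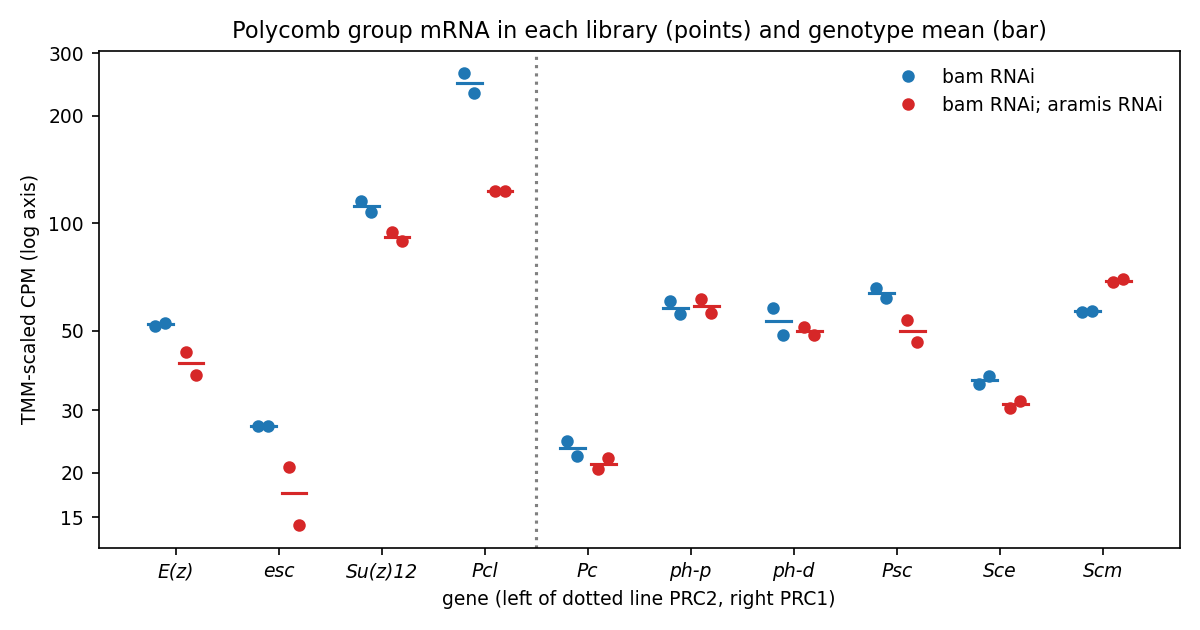
Level of each Polycomb group gene in each library, as TMM-scaled CPM on a log axis, with *bam* RNAi in blue, double RNAi in red and a bar at the mean of 2 libraries. Both *Pcl* libraries of double RNAi sit near 123, below the *bam* RNAi libraries at 231 and 263, while the genotypes overlap for *ph-p* and *ph-d*.

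*Pcl* had 3403 and 3292 counts in *bam* RNAi replicates 1 and 2 and 1401 and 1395 in double RNAi. Scaled by TMM, these were 263 and 231 CPM against 123 and 123 CPM. The genotypes were far apart compared with the distance between replicates, and the log2 fold change was -1.0 (SE 0.0864, edgeR adjusted p = 3.6e-04). A lower log2 fold change was found for 8.01% of the tested genes. It kept its call with each library left out, with an edgeR adjusted p of at most 0.0470 there, and with DESeq2 its log2 fold change was -0.98.

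*E(z)*, which carries the methyltransferase activity of PRC2, was at 51.5 and 52.7 TMM-scaled CPM in *bam* RNAi and at 43.6 and 37.7 in double RNAi. Both double RNAi libraries were lower than both *bam* RNAi libraries, with a log2 fold change of -0.36 (SE 0.107, edgeR adjusted p = 0.0308). This call was lost with DESeq2 (adjusted p = 0.0976), and in edgeR without *bam* RNAi replicate 1 (adjusted p = 0.147), without *bam* RNAi replicate 2 (0.171) and without double RNAi replicate 2 (0.130).

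*esc*, whose WD40 protein recognises the mark that PRC2 makes, was at 27.0 and 27.1 TMM-scaled CPM in *bam* RNAi and at 20.8 and 14.3 in double RNAi. The double RNAi libraries were apart from each other, yet both lay below *bam* RNAi, and the log2 fold change of -0.63 was the second largest fall among the members (SE 0.182, edgeR adjusted p = 0.0273). DESeq2 also gave a fall (adjusted p = 0.0331). In edgeR the call was lost without *bam* RNAi replicate 1 (adjusted p = 0.197), *bam* RNAi replicate 2 (0.204) or double RNAi replicate 2 (0.0915), and the log2 fold change without double RNAi replicate 2 was -0.37.

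*Su(z)12*, which holds the PRC2 core together, had 116 and 108 TMM-scaled CPM in *bam* RNAi and 94.3 and 89.4 in double RNAi. The groups did not overlap, and the fall was the smallest of the PRC2 members, with a log2 fold change of -0.28 (SE 0.0791, edgeR adjusted p = 0.0239). The adjusted p was 0.0919 with DESeq2, and in edgeR 0.154 and 0.0844 without *bam* RNAi replicates 1 and 2 and 0.0515 and 0.107 without double RNAi replicates 1 and 2, so that no fit with a library left out called it.

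**Figure D2:**
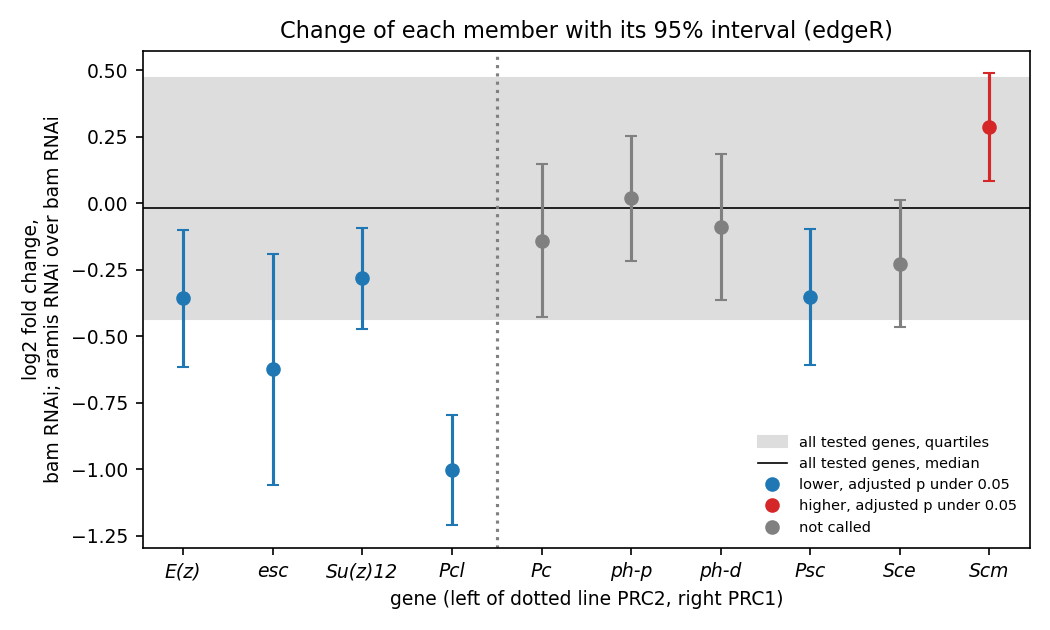
Log2 fold change of each member, double RNAi over *bam* RNAi, with its 95% interval from edgeR, the median of all tested genes as a line and their quartiles as a grey band. The 4 PRC2 members and *Psc* lie below 0 with intervals that leave out 0, *Scm* lies above 0, and 8 of the 10 members fall between the quartiles of -0.44 and 0.47.

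Among PRC1 genes, *Psc*, a RING domain partner of Sce, was at 66.0 and 61.8 TMM-scaled CPM in *bam* RNAi and at 53.6 and 46.5 in double RNAi. These groups did not overlap, and *Psc* fell with a log2 fold change of -0.35 (SE 0.107, edgeR adjusted p = 0.0313). The call was lost with DESeq2 (adjusted p = 0.0798) and in edgeR without *bam* RNAi replicate 1 (adjusted p = 0.189), *bam* RNAi replicate 2 (0.127) or double RNAi replicate 2 (0.125).

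*Scm* moved the other way. It was at 56.5 and 56.9 TMM-scaled CPM in *bam* RNAi and at 68.4 and 69.9 in double RNAi, and the replicates of each genotype were close together. The log2 fold change was 0.29 (SE 0.0844, edgeR adjusted p = 0.0287), and *Scm* was the only member called higher. DESeq2 did not call it (adjusted p = 0.0795), and in edgeR the adjusted p was 0.120 and 0.110 without *bam* RNAi replicates 1 and 2 and 0.0614 and 0.0764 without double RNAi replicates 1 and 2. As raw counts, *Scm* had 730 and 811 in *bam* RNAi and 776 and 794 in double RNAi, and on library totals in place of TMM its log2 fold change was 0.09 (edgeR adjusted p = 0.430).

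The other 4 PRC1 genes did not pass the test, and their intervals bound the change that these libraries allow. *Pc*, the chromodomain reader of H3K27me3, was at 24.6 and 22.3 TMM-scaled CPM against 20.4 and 22.0, and a log2 fold change of -0.14 (95% interval -0.43 to 0.15). *Sce* had 35.5 and 37.3 against 30.4 and 31.8, and a log2 fold change of -0.23 (95% interval -0.47 to 0.01). For *Sce* the genotypes did not overlap, with an edgeR adjusted p of 0.0994, and on library totals it was called lower (log2 fold change -0.42, edgeR adjusted p = 0.0117).

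The polyhomeotic genes encode SAM domain proteins through which PRC1 units join to each other. *ph-p* had 60.5 and 55.6 TMM-scaled CPM in *bam* RNAi and 61.3 and 56.2 in double RNAi, a log2 fold change of 0.02 (95% interval -0.22 to 0.25). *ph-d* had 57.8 and 48.6 against 51.3 and 48.5, a log2 fold change of -0.09 (95% interval -0.37 to 0.18). With both summed as 1 feature, which removes the uncertain split, the counts were 1529 and 1484 against 1278 and 1189 and the log2 fold change was -0.03 (SE 0.0905, edgeR adjusted p = 0.789). The libraries of the genotypes overlapped for both genes.

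By libraries alone, 7 of the 10 members were lower in both double RNAi libraries than in both *bam* RNAi libraries and 1 was higher, while over all tested genes the groups did not overlap in 40.0% of genes as lower and 37.2% as higher.

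Ratios within a library do not depend on how libraries are scaled. The summed TPM of the 4 PRC2 members was 1.63 and 1.57 times that of the 6 PRC1 members in *bam* RNAi and 1.13 and 1.03 times in double RNAi. *Pcl* made up 47.3% ± 1.87 (SD, n = 2) of the PRC2 TPM in *bam* RNAi and 37.0% ± 2.42 in double RNAi, while the share of *Su(z)12* was 22.9% ± 0.0249 and 29.5% ± 0.915. Shares of a common sum are bound to each other, and *Pcl* also enters the PRC2 sum in the ratio to PRC1. The mean summed TPM of PRC2 was 298 in *bam* RNAi and 175 in double RNAi, of which *Pcl* alone held 141 and 64.5. For PRC1 the mean sums were 186 and 162. The mean TPM of *Su(z)12* itself was 68.2 in *bam* RNAi and 51.5 in double RNAi. Within PRC1, *Scm* took 18.8% ± 0.570 and 24.2% ± 0.477 of the summed TPM. In each of these ratios the 2 genotypes did not overlap, nor did they for the shares of *E(z)*, *Psc* and *Sce*. These separations were not tested, and the levels of single genes also did not overlap in 40.0% of all tested genes as lower and 37.2% as higher. The shares of *esc*, *Pc* and *ph-d* overlapped between the genotypes, and those of *ph-p* met at 11.6%.

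The count ratio of *Psc* to its paralog and neighbour *Su(z)2* was 0.870 and 0.829 in *bam* RNAi and 0.501 and 0.509 in double RNAi. This was the widest separation among the 4 count ratios examined, with a log2 difference of -0.75. *E(z)* to *esc* was 1.91 and 1.94 in *bam* RNAi and 2.1 and 2.64 in double RNAi. The ratio of *ph-p* to *ph-d* was 1.05 and 1.14 against 1.20 and 1.16, and that of *Sce* to *Psc*, the RING partners of PRC1, was 0.537 and 0.603 against 0.567 and 0.684. The genotypes overlapped for *Sce* to *Psc* and did not for the other 3. With 2 libraries per genotype, a two-sided exact permutation test cannot go below p = 0.333, which was the value for each of these 3 ratios.

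**Figure D3:**
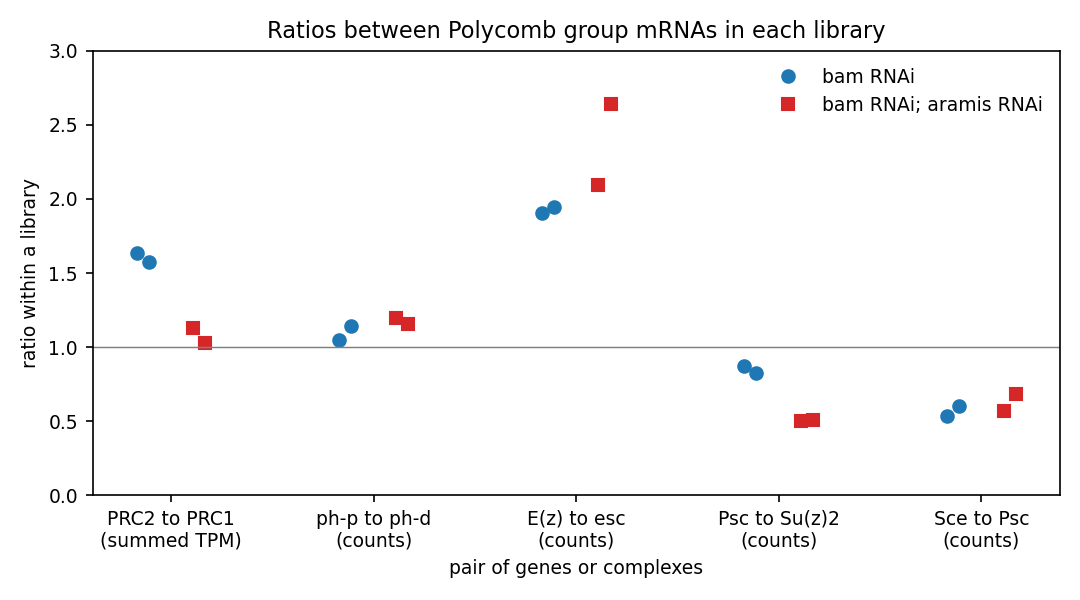
Ratios between Polycomb group mRNAs within each library, summed TPM for PRC2 to PRC1 and counts for single genes, with *bam* RNAi as blue circles and double RNAi as red squares. The PRC2 to PRC1 ratio, in which *Pcl* is the largest part of the PRC2 sum, lies near 1.6 in *bam* RNAi and near 1.1 in double RNAi. *Psc* to *Su(z)2* lies at 0.829 and 0.870 against 0.501 and 0.509.

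Of 23 further Polycomb group genes, 22 were matched and tested, of which 9 fell, 2 rose and 11 did not pass, with a median log2 fold change of -0.17. Over all tested genes 50.4% were called, 25.0% as lower and 25.4% as higher, which is the background for this count and for the lists that follow. Among 4 other PRC2 genes, *jing*, a zinc finger protein that can join PRC2, had counts of 1789 and 1825 in *bam* RNAi and of 788 and 718 in double RNAi and fell by 1.01 on the log2 scale (SE 0.0866, edgeR adjusted p = 3.6e-04). *Caf1-55*, a histone-binding WD40 subunit that PRC2 shares with other chromatin complexes, had 2299 and 2562 against 1083 and 1047 counts and fell by 0.93 (SE 0.0703, edgeR adjusted p = 2.8e-04). Both kept their calls with each library left out. *Jarid2*, an accessory subunit, and *escl*, the paralog of *esc*, did not pass, with log2 fold changes of -0.04 and 0.16. *escl* was low, with between 93 and 142 counts per library.

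Of 4 other PRC1 genes, *Su(z)2* rose, with 982 and 1062 counts in *bam* RNAi and 1214 and 1038 in double RNAi and a log2 fold change of 0.40 (SE 0.0977, edgeR adjusted p = 0.0145). On library totals *Su(z)2* was at 0.21 (adjusted p = 0.155), scaled on somatic ovary markers at 0.10 (0.720), and its edgeR adjusted p was 0.138, 0.148 and 0.0591 without *bam* RNAi replicate 1, *bam* RNAi replicate 2 and double RNAi replicate 1. *RYBP*, *l(3)73Ah* and *Kdm2*, which belong to variant forms of PRC1, did not pass the test.

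Of 7 tested recruiters, which bring the complexes to DNA, 3 fell. *psq* fell by 0.52 on the log2 scale (edgeR adjusted p = 0.00175), *Sfmbt*, the partner of Pho in the PhoRC complex, by 0.48 (adjusted p = 0.00219) and *phol*, the paralog of *pho*, by 0.25 (adjusted p = 0.0421). *psq* and *Sfmbt* lost their calls without either *bam* RNAi library, with adjusted p between 0.0502 and 0.0582, and *phol* lost its call without any one library, with DESeq2 (0.173), with RLE normalization (0.0562) and with no filter on low counts (0.0743). *pho*, *Spps*, *cg* and *Trl* did not pass.

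In the last Polycomb list, the 7 genes of the H2A deubiquitinase PR-DUB and of other Polycomb loci, 4 fell and 1 rose. *mxc*, a component of the histone locus body, fell by 0.57 on the log2 scale (edgeR adjusted p = 0.00155), *sxc*, the O-GlcNAc transferase, by 0.56 (adjusted p = 0.00312) and *crm* by 0.48 (adjusted p = 0.00620). *corto*, which encodes a chromatin protein, rose by 0.48 (adjusted p = 0.00325), a call lost when libraries were scaled on somatic ovary markers (log2 fold change 0.18, adjusted p = 0.484). Without *bam* RNAi replicate 1 the adjusted p was 0.0550 for *mxc*, 0.0719 for *crm* and 0.0754 for *corto*, and without *bam* RNAi replicate 2 it was 0.0649 for *sxc*, 0.0586 for *crm* and 0.0769 for *corto*. The PR-DUB genes themselves, *caly* and *Asx*, did not pass, at -0.27 and -0.18.

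The Trithorax group, which counteracts Polycomb silencing, was set beside them. Of 13 genes 2 fell and 11 did not pass edgeR's test, with a median log2 fold change of -0.08, where 50.4% of all tested genes were called. *wds*, a subunit of H3K4 methyltransferase complexes, fell by 0.53 on the log2 scale (edgeR adjusted p = 0.00215) and *mor*, a core subunit of the Brahma remodelling complex, by 0.34 (adjusted p = 0.0120). Without *bam* RNAi replicate 2 the adjusted p was 0.0530 for *wds* and 0.0665 for *mor*, and without replicate 1 it was 0.0936 for *mor*. *Utx*, the demethylase that removes the mark made by E(z), was at 0.07 (edgeR adjusted p = 0.495).

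**Figure D4:**
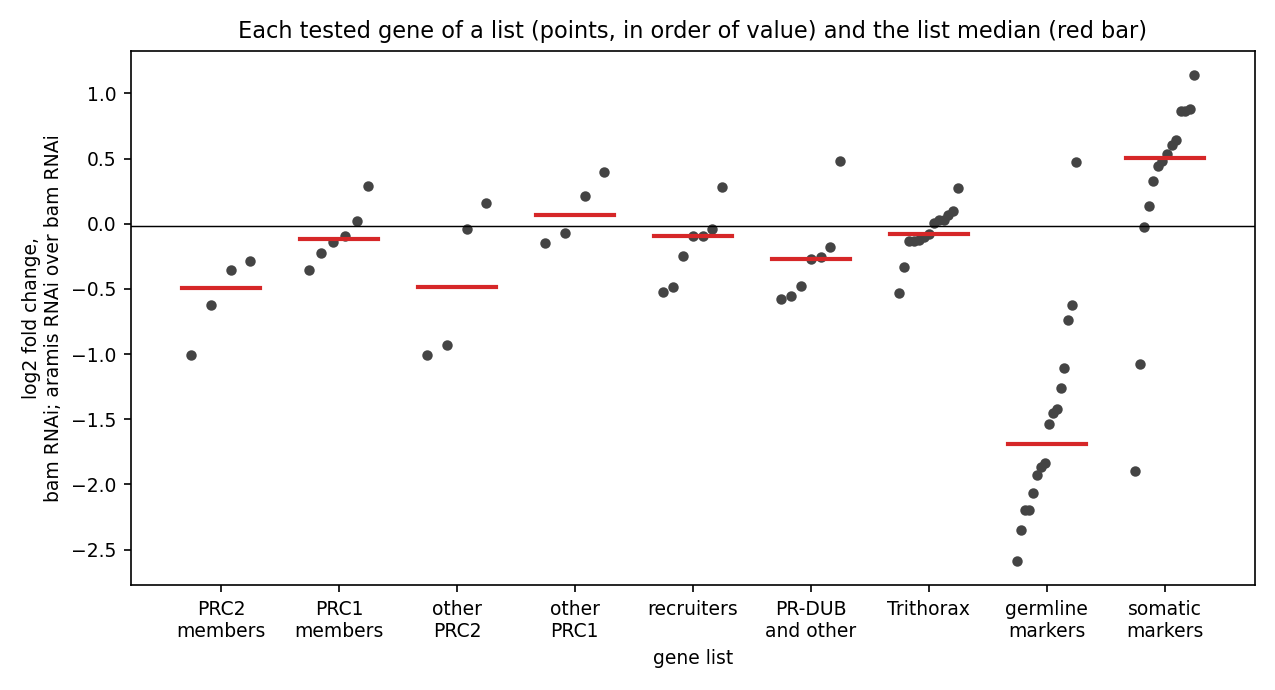
Log2 fold change, double RNAi over *bam* RNAi, of each tested gene in the Polycomb, Trithorax and marker lists (points in order of value), with the list median as a red bar and the median of all tested genes as a black line. The PRC2 members have a median of -0.49. The other PRC2 genes have a median of -0.48, but they are split and run from -1.01 to 0.16. The germline markers have a median of -1.69 and the somatic ovary markers of 0.51, and the median of all tested genes, -0.02, also lies between these.

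The log2 fold change of each of the 10 members lay above the median of the germline markers, whose values ran from -2.59 for *rhi* to 0.47 for *tud*. So did most tested genes, since that median of -1.69 is below -1.35, the 5% quantile of all tested genes. When the libraries were scaled so that the germline markers had equal mean levels, the median of all tested genes moved up by 1.55 and all 10 members were called higher, as were 8188 of all 9115 tested genes, with members from *Pcl* at 0.54 to *Scm* at 1.83. Scaled on somatic ovary markers, the median of all genes moved by -0.30. *Pcl*, *esc*, *E(z)*, *Psc* and *Su(z)12* remained lower there, between -1.29 and -0.57, while *Scm* was at -0.010. The somatic ovary markers themselves moved both ways under TMM. Of the 14 tested 7 rose, with *zfh1* highest at a log2 fold change of 1.14, and 5 did not pass. The 2 called lower were *tj*, at -1.08, and *upd1*, at -1.90. On library totals the median moved by -0.19, 6 members and 3346 of all tested genes were called lower in edgeR. The direction of a member in these whole ovaries therefore depends on the reference, and which reference holds within germline or somatic cells was not tested.

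**Figure D5:**
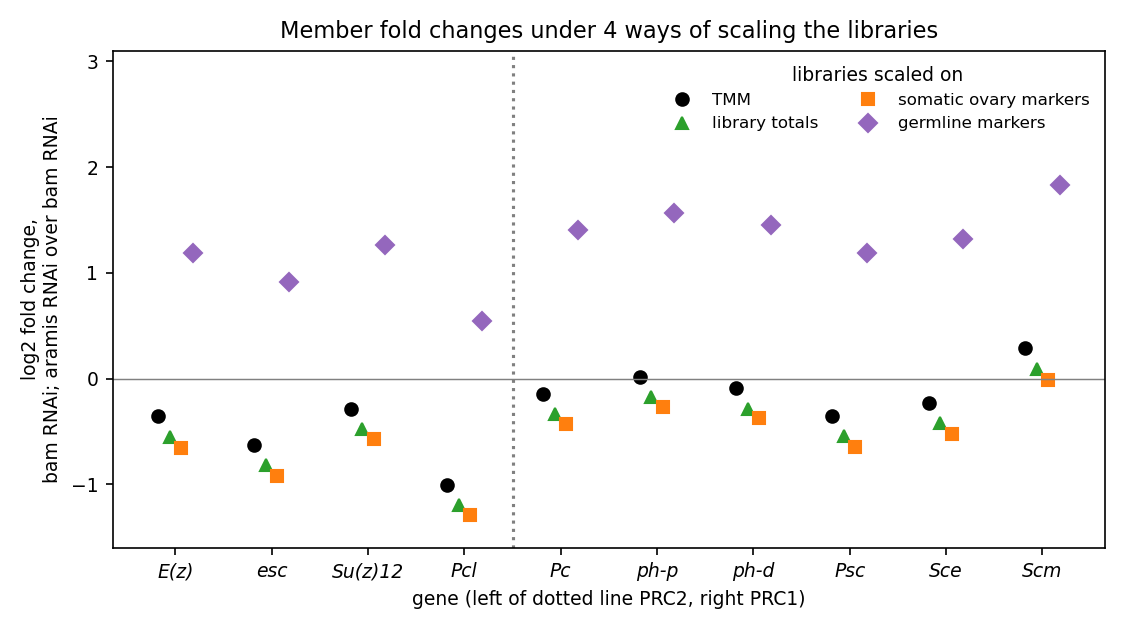
Log2 fold change of each member with the libraries scaled by TMM (black), library totals (green), somatic ovary markers (orange) and germline markers (purple). Scaling on germline markers places all 10 members above 0, from 0.54 to 1.83, and the other 3 scalings place the 4 PRC2 members below 0.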

How the data were processed

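Raw counts per gene were deposited by the authors as whole numbers, 1 file per library, without normalization. The submitters' processing notes name HISAT2 2.1.0, featureCounts 1.4.6, DESeq2 1.24.0 and the build dm6, and the strand setting, the annotation release and the treatment of multiply mapped reads are not given in the sources used here. Libraries were directional, with RNA fragmented for 13 min. Groups came from the titles and genotypes in the labels.

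Symbols, positions and exon lengths came from Ensembl release BDGP6.54.115, which matched 16647 of 17023 identifiers. The other 376 held between 6.14% and 6.32% of the counts and entered the tests but not TPM (exon union as length). *Dsp1*, *wg* and *wupA* did not match and were not analysed here, and *nanos* and *caly* stand for *nos* and *calypso*.

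Genotypes were compared with edgeR 4.0.16 in R 4.3.3 (TMM, minimum count 10, genotype as the only term, adjusted p under 0.05). Standard errors were derived from the F statistic of that test. The functions were tested on simulated data. Alternatives were DESeq2 1.42.0, RLE, no filter, a replicate block, scaling on germline or somatic markers, each library left out and *ph-p* and *ph-d* summed, and library totals, chosen after seeing the data. Members and lists were chosen with earlier results of these data known. Named genes are the members, the RNAi targets, the genes of the count ratios and up to 4 called genes of each list with the largest change (marker lists are given as counts). Other genes were named after their values were seen. Python 3.11.15, pandas 2.3.3, scipy 1.17.1 and matplotlib 3.10.9 were used.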

Additional observations from a re-analysis of the deposited data

How the results depend on the processing

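With RLE normalization, no filter on low counts or a replicate block, all 10 members kept their direction and call, and summing *ph-p* and *ph-d* changed no call of the other 8. The block called 4430 genes, 4312 of them shared. Deviations of same-numbered libraries had a correlation of 0.03, so the numbers are not shown to pair the libraries. With it, 1 named gene (*phol*) lost its call. DESeq2 called 2 members lower and 0 higher, and over all genes 1694 lower and 2098 higher. Leaving out a library, which leaves 1 in a genotype that is taken to vary like the other, gave between 685 and 1991 genes called higher and between 558 and 1724 lower, against 2312 and 2278, with 1 to 4 members lower and 0 higher, and medians from -0.68 to -0.31 (PRC2), -0.20 to -0.017 (PRC1) and -0.27 to -0.24 (all members). In these fits *ph-p* ran from -0.043 to 0.090 and *ph-d* from -0.21 to 0.036.

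Scaled on germline markers, 8188 genes were higher and 128 lower, with 10 members higher and 0 lower and medians of 1.05 (PRC2), 1.43 (PRC1) and 1.29 (all members). This follows from the shift of 1.55. *E(z)* was at 1.19, *esc* 0.92, *Su(z)12* 1.26, *Pcl* 0.54, *Pc* 1.4, *ph-d* 1.45, *Psc* 1.19, *Sce* 1.32, *bam* 0.93, *ais* 0.17, *jing* 0.54, *Caf1-55* 0.62, *psq* 1.02, *Sfmbt* 1.06, *phol* 1.30, *mxc* 0.97, *sxc* 0.99, *crm* 1.06, *wds* 1.02 and *mor* 1.21. On somatic markers 1056 genes were higher and 2837 lower, with 0 members higher, medians of -0.79, -0.40 and -0.55, *ph-p* at -0.27 and *Scm* at -0.010, and *Su(z)2* (0.10), *corto* (0.18) and *Ubx* (1.67) lost their calls. Library totals gave 1684 higher and 3346 lower, 0 members higher, medians of -0.68, -0.31 and -0.45, and *ph-p* at -0.18. Beyond these shifts the cause was not tested. Of the 4 fits with a library left out, those without a *bam* RNAi library called the fewest genes.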

Other observations

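Genes known as Polycomb targets in other *Drosophila* tissues were read in the same libraries. Of 17 listed, 16 were matched and 8 had enough counts to be tested, of which 4 rose, 2 fell and 2 did not pass edgeR's test. Over all tested genes 25.4% were called higher and 25.0% lower, and the counts among these 8 were not tested against those shares. The 4 that rose were Hox genes. *abd-A* had counts of 3443 and 3620 in *bam* RNAi and of 5778 and 6797 in double RNAi, a log2 fold change of 1.09 (SE 0.102, edgeR adjusted p = 4.5e-04), and its adjusted p without *bam* RNAi replicate 2 was 0.0505. *Ubx* had 3 and 6 counts against 15 and 15 (log2 fold change 1.97, SE 0.576, edgeR adjusted p = 0.0279), and lost its call in DESeq2 (adjusted p = 0.130), scaled on somatic markers (0.0630) and with any one library left out. *Antp* and *Abd-B*, named after their values were seen, had log2 fold changes of 0.91 and 0.61 (edgeR adjusted p = 5.7e-04 and 0.0194). *Antp* had counts of 381 and 412 in *bam* RNAi and of 622 and 623 in double RNAi. *Abd-B* had 281 and 298 against 313 and 427, and its double RNAi libraries were apart, at 27.6 and 37.6 TMM-scaled CPM. Their calls under other settings are not given here. The other listed Hox genes, *Scr* and *Dfd*, had at most 1 count in any library.

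The 2 that fell were *cad*, a homeodomain gene of posterior patterning, and the eye selector gene *ey*. *cad* had counts of 61 and 69 in *bam* RNAi and of 9 and 9 in double RNAi, a log2 fold change of -2.58 (SE 0.346, edgeR adjusted p = 0.00136). *ey* had 87 and 82 against 14 and 15 counts, a log2 fold change of -2.28 (SE 0.307, edgeR adjusted p = 0.00136). Scaled on germline markers *cad* stayed lower, at -1.04 (adjusted p = 0.0303), and *ey* was at -0.74 (adjusted p = 0.0673). Muscle sheath markers, which rose by a median of 1.01, and germline markers, which fell by a median of 1.69, moved with these genes, and their part in them was not tested.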
